A study of Homo sapiens with 6 samples.

Results

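The transcripts described here are those of 10 genes of the circadian clock, chosen by symbol as clock repressors and output factors: BHLHE40, BHLHE41, NFIL3, DBP, PER1, PER2, PER3, CRY1, CRY2 and NR1D1. All 10 were listed among the 21850 genes of the count table, under these symbols, and all 10 passed the filter on low counts. RNA-seq was performed on MM.1S, a human multiple myeloma cell line, on day 3 after lentiviral infection with a scramble shRNA (shNT, 3 libraries, genotype WT) or with a PRKCN shRNA (shPRKCN, 3 libraries, PRKCN knockdown). Both groups therefore carried a lentiviral hairpin. A single PRKCN hairpin condition and a single harvest time were profiled, so that an effect of PRKCN loss and of this hairpin cannot be told apart, and neither can a change in the mean level of a clock gene and a shift of its phase. BHLHE40 and NFIL3 were already known to be lower in these libraries when the genes were chosen, so the values of the 10 genes are given as a description, without a test.

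The molecular clock is a feedback loop of transcription. CLOCK and ARNTL (BMAL1) activate genes through E-box elements, the PER and CRY proteins that accumulate repress CLOCK and ARNTL, and BHLHE40 and BHLHE41 (DEC1 and DEC2) compete for the same E-boxes as further repressors. In a linked loop the nuclear receptors NR1D1 and NR1D2 (REV-ERBα and REV-ERBβ) repress, and the ROR receptors activate, ARNTL through a shared element. Output is passed on through D-boxes, where DBP activates and NFIL3 (E4BP4) represses.

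Total counts ran from 35625564 to 37730003 per library, and pairs of libraries differed by a chi-square per degree of freedom of 3.38 to 4.8 in the same group and 63.8 to 70.2 across groups. PRKCN (protein kinase D3, a serine/threonine kinase), listed as PRKD3, was at 41.0% of its shNT level in shPRKCN libraries, and the plasma cell factor IRF4 had a log2 fold change of −1.85. All 9 plasma cell markers examined had at least 1 FPKM in every library, with a summed level of 5826 to 5952 FPKM in shNT and 5298 to 5525 FPKM in shPRKCN libraries. JCHAIN, with a mean of 4136 FPKM in shNT and 4236 FPKM in shPRKCN cells, made up most of this sum. Of the 9, 6 were nevertheless lower at an adjusted p under 0.05 and 1 higher (edgeR, over all genes), and IRF4, XBP1 (log2 fold change −1.28), TNFRSF17 (−1.13) and SLAMF7 (−0.97) also lay beyond a log2 fold change of 0.58. Over all tested genes 27.8% were lower and 26.5% higher by the adjusted p, and 10.6% were lower with this fold limit as well. The part of these markers in the results below was not tested. Of 11 markers of other cell types, 9 were listed and 8 of them stayed under 1 FPKM in every library; the exception was CD3E, whose partner CD3D had at most 1 count per library. The summed level of these markers, nearly all from CD3E, was 7.92 to 8.54 FPKM in shNT and 20.3 to 22.8 FPKM in shPRKCN libraries, and its part in the results below was not tested. Nothing in the labels says whether the libraries of a group came from separate cultures, so the errors and p-values measure the spread between libraries. Values are shares of a library's RNA, and less RNA of a gene per cell cannot be told apart from fewer cells that express it.

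Of the 10 clock genes, BHLHE40 and NFIL3 had the largest log2 fold changes, and both were known to be lower when the genes were chosen. BHLHE40, NFIL3, BHLHE41, CRY1 and PER2 were lower after PRKCN knockdown and NR1D1 was higher, whereas PER1, CRY2 and DBP differed by less than 0.3 on the log2 scale and PER3 was close to the detection limit. The limits for a call were an adjusted p under 0.05 (edgeR's quasi-likelihood test over all genes, Benjamini-Hochberg) together with a log2 fold change beyond 0.58. By these limits 5 of the 10 lay on the lower side and 1 on the higher side, where 10.6% and 6.15% of the 13971 tested genes did (16.7% in either direction). The CPM of the groups did not overlap for 8 of the 10, and for 58.8% of all tested genes. The median log2 fold change was −0.60 over the 10 genes and 0.0012 over all genes tested. Because the genes were chosen with this contrast in view, nothing is read from these counts.

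BHLHE40, a basic helix-loop-helix repressor also induced by hypoxia and cytokines, lies on chromosome 3 (4979437 to 4985323, plus strand; RefSeq, GRCh38.p14). Its levels in CPM (counts scaled by library size and TMM factor) were 81.6, 82.4 and 80.55 in shNT and 29.9, 29.1 and 27.8 in shPRKCN libraries. All shPRKCN values lay far below all shNT values, against an SD of 0.917 CPM in shNT and 1.06 CPM in shPRKCN cells (n = 3). The log2 fold change was −1.49 (standard error, SE, of 0.050), which left 35.5% of the shNT level, and 1.52% of the tested genes had a lower log2 fold change. Its paralog BHLHE41, on chromosome 12 (26120030 to 26125037, minus strand), was expressed at 65.4, 66.0 and 65.8 CPM in shNT and at 40.4, 39.6 and 37.9 CPM in shPRKCN libraries. The groups did not overlap here either, but 59.8% of the shNT level remained, a log2 fold change of −0.74 (SE 0.050). The ratio of BHLHE40 to BHLHE41 on the per-length FPKM scale was 1.36, 1.36 and 1.33 in shNT and 0.807, 0.798 and 0.799 in shPRKCN libraries. BHLHE40 was thus the more abundant of the pair in the control cells, and BHLHE41 in the knockdown cells. Their summed level was 41.0 ± 0.366 FPKM in shNT and 19.0 ± 0.638 FPKM in shPRKCN cells (SD, n = 3).

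NFIL3, a basic leucine zipper repressor at D-boxes with roles in lymphocyte development, is on chromosome 9 (91409045 to 91483497, minus strand). It was the highest of the 10 genes per length in both groups. Its expression was 189.8, 188 and 181 CPM in shNT and 71.7, 69.4 and 69.3 CPM in shPRKCN libraries. The groups did not overlap, and the log2 fold change of −1.41 (SE 0.040) left 37.6% of the shNT level. Leaving out any 1 library moved this value only between −1.43 and −1.40, and that of BHLHE40 between −1.52 and −1.46.

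DBP, the activator that shares D-boxes with NFIL3, lies on chromosome 19 (48630030 to 48637379, minus strand). It was expressed at 12.1, 10.1 and 11.2 CPM in shNT and 13.7, 12.2 and 13.5 CPM in shPRKCN libraries. Every shPRKCN value was above every shNT value, though the lowest of the former and the highest of the latter were close, and the log2 fold change was 0.24 (SE 0.094). In GENCODE release 29, 10.1% of the exonic bases of DBP are also exonic in SPHK2 on the opposite strand, and SPHK2 had a log2 fold change of 0.43 (SE 0.076, adjusted p = 1.3e-06, edgeR). Whether the reads were counted by strand is not given in the sources used here, so the part of SPHK2 in the DBP counts was not tested. The ratio of NFIL3 to DBP in FPKM was 11.7, 13.8 and 12.0 in shNT and 3.89, 4.24 and 3.84 in shPRKCN libraries. The D-box repressor thus outweighed the activator in every library, and by a smaller factor after knockdown. NFIL3 was known to be lower when the genes were chosen, so the smaller factor in part restates its drop. With the activators TEF and HLF added to DBP, the ratio was 7.61 ± 0.427 in shNT and 2.63 ± 0.0398 in shPRKCN cells (SD, n = 3).

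**Figure D1:**
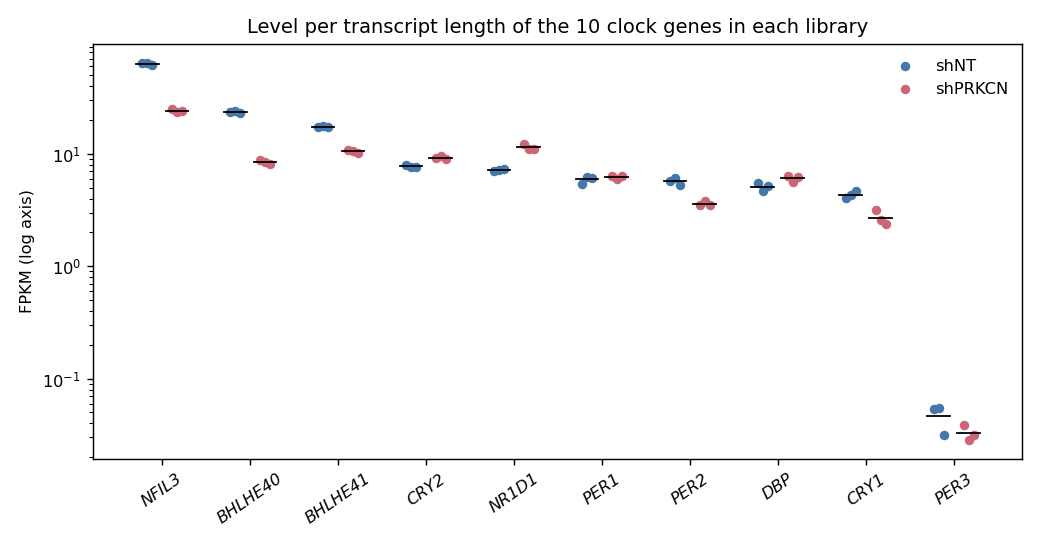
FPKM of the 10 clock genes in each library (log axis), ordered by the shNT mean; dots are the 3 libraries of each group, side by side, and the bars are group means. NFIL3 is highest in both groups, BHLHE40 is the second in shNT and the fifth in shPRKCN cells, and PER3 stays under 0.1 FPKM.

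The period genes differed among themselves. PER2, on chromosome 2 (238244044 to 238300065, minus strand), was expressed at 39.5, 41.4 and 35.98 CPM in shNT and at 23.3, 25.8 and 23.4 CPM in shPRKCN libraries. All shPRKCN libraries were below all shNT libraries, with a log2 fold change of −0.69 (SE 0.061) and 62.0% of the shNT level left. PER1, on chromosome 17 (8140472 to 8152404, minus strand), a period gene that responds rapidly to external signals, had 25.7, 29.2 and 28.7 CPM in shNT and 29.4, 28.3 and 29.3 CPM in shPRKCN libraries. Its groups overlapped, and its log2 fold change was 0.06 (SE 0.062). The ratio of PER2 to PER1 in FPKM was 1.06, 0.980 and 0.866 in shNT and 0.5485, 0.630 and 0.552 in shPRKCN libraries. PER2 and PER1 were thus near equal per length in the control cells, and PER1 exceeded PER2 in the knockdown cells. PER3, on chromosome 1 (7784291 to 7845177, plus strand), had 16, 17 and 10 counts in shNT and 12, 9 and 10 counts in shPRKCN libraries, a log2 fold change of −0.51 whose SE was 0.499. At this depth no difference in PER3 was detectable. The summed level of the 3 period genes was 11.7 ± 0.589 FPKM in shNT and 9.87 ± 0.0372 FPKM in shPRKCN cells (SD, n = 3).

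The cryptochromes, which repress CLOCK and ARNTL together with the PER proteins, differed in opposite directions. CRY1, on chromosome 12 (106991364 to 107093549, minus strand), had 14.2, 15.3 and 16.4 CPM in shNT and 10.98, 9.01 and 8.27 CPM in shPRKCN libraries. The groups did not overlap, although the shPRKCN libraries ranged widely, and the log2 fold change was −0.70 (SE 0.097). CRY2, on chromosome 11 (45847118 to 45883244, plus strand), had 34.7, 33.3 and 33.1 CPM in shNT and 39.1, 41.7 and 38.02 CPM in shPRKCN libraries. Its groups did not overlap in the other direction, with a log2 fold change of 0.23 (SE 0.056). The ratio of CRY1 to CRY2 in FPKM was accordingly 0.558 ± 0.0524 in shNT and 0.292 ± 0.0450 in shPRKCN cells (SD, n = 3). The sum of both was 12.1 ± 0.157 FPKM in shNT and 12.0 ± 0.548 FPKM in shPRKCN cells (SD, n = 3), with overlapping groups, so that the balance between the cryptochromes differed while their sum did not separate the groups.

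NR1D1, a heme-binding nuclear receptor that represses ARNTL, lies on chromosome 17 (40092793 to 40100589, minus strand). It had 18.8, 18.8 and 19.4 CPM in shNT and 31.9, 29.1 and 28.5 CPM in shPRKCN libraries. All shPRKCN libraries lay above all shNT libraries, and the log2 fold change was 0.65 (SE 0.066), 157% of the shNT level. It was the only one of the 10 genes above the fold limit, and leaving out single libraries moved it between 0.60 and 0.69. The thyroid hormone receptor gene THRA lies on the opposite strand and shares 263 exonic bases with NR1D1, 9.49% of the exonic bases of NR1D1 in GENCODE release 29. THRA had 838, 897 and 831 counts in shNT and 1187, 1203 and 1306 counts in shPRKCN libraries, with a log2 fold change of 0.49 (SE 0.062, adjusted p = 4.4e-10, edgeR). NR1D1 and THRA were thus higher together, and the ratio of NR1D1 to THRA in FPKM, 1.95 ± 0.129 in shNT and 2.18 ± 0.210 in shPRKCN cells (SD, n = 3), overlapped between the groups. Reads of either gene over the shared bases cannot be told apart without strand, and how many of them were counted for NR1D1 was not tested.
Of the other clock genes with an exonic overlap, BHLHE41 shares 4.1% of its exonic bases with SSPN, which had 12 to 48 counts per library against 1440 to 2462 for BHLHE41, and PER3 shares 10.7% with UTS2, which had at most 9. BHLHE40 and its antisense transcript BHLHE40-AS1 have 4 exonic bases in common, and BHLHE40-AS1 had 6, 15 and 5 counts in shNT and 0, 4 and 0 counts in shPRKCN libraries.

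Levels could be ordered on the per-length FPKM scale. In shNT cells the order was NFIL3 (63.6 ± 1.58), BHLHE40 (23.5 ± 0.293), BHLHE41 (17.4 ± 0.110), CRY2 (7.79 ± 0.193), NR1D1 (7.18 ± 0.122), PER1 (5.92 ± 0.418), PER2 (5.72 ± 0.409), DBP (5.10 ± 0.431), CRY1 (4.34 ± 0.311) and PER3 (0.0466 ± 0.0130), each as mean FPKM with its SD (n = 3). The libraries of PER1, PER2, DBP and CRY1 overlapped between neighbours, and the remaining neighbours were separate. In shPRKCN cells the order was NFIL3 (24.2 ± 0.616), NR1D1 (11.4 ± 0.730), BHLHE41 (10.6 ± 0.330), CRY2 (9.28 ± 0.342), BHLHE40 (8.47 ± 0.309), PER1 (6.24 ± 0.200), DBP (6.09 ± 0.445), PER2 (3.59 ± 0.168), CRY1 (2.71 ± 0.410) and PER3 (0.0330 ± 0.00514), on the same scale. Here only PER1 and DBP overlapped as neighbours. BHLHE40 stood above BHLHE41, CRY2 and NR1D1 in the control cells and below them in the knockdown cells.

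The promoter windows of RefSeq (GRCh38.p14), from 250 bases before to 50 bases from the start of transcription, were searched on both strands for clock elements, and all 10 genes had a window. Of the 35116 windows of all genes, 7.26% hold the E-box CACGTG and 5.34% the related E′-box CACGTT. Among the 10 genes, BHLHE40, BHLHE41 and PER1 hold CACGTG, and PER2, CRY1 and NR1D1 hold CACGTT. The D-box TTACGTAA, in 0.125% of all windows, was found only in PER2 of the 10, where it spans the start from position −3 to 4 with the first transcribed base as 0, and the D-box TTATGTAA, in 0.886%, only in PER3. No window of the 10 holds the ROR and REV-ERB element TAGGTCA (1.85% of all windows), the cyclic AMP response element TGACGTCA (1.85%) or the core of the interferon-stimulated response element (3.57%), searched as a GAAA repeat with 2 bases between the copies. The windows of NFIL3 and PER2 lie at an internal annotated start of the gene. NFIL3, DBP and CRY2 had no match to any of these motifs. The windows of the 5 genes that were past the limits and hold a match are shown with the match in capitals, read along the strand of the gene; the 5 include genes on both sides of the change. A match is a description of the sequence and does not show binding in these cells.
BHLHE40 (chr3:4979187-4979486, plus strand), E-box 245 bases before the start: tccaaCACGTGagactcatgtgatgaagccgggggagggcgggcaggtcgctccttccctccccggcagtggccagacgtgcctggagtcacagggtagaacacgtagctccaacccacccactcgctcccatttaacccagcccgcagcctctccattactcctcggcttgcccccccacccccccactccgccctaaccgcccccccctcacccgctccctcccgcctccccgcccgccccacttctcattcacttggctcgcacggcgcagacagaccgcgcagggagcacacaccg
BHLHE41 (chr12:26124988-26125287, minus strand), E-box 48 bases before the start: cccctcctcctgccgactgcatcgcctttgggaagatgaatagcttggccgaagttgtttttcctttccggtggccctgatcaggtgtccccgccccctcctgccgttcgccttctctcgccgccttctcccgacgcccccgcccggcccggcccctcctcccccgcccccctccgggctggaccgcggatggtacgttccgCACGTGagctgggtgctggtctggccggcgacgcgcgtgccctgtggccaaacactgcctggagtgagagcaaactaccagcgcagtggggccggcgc
PER2 (chr2:238288561-238288860, minus strand), E′-box 197 bases before the start and D-box over it: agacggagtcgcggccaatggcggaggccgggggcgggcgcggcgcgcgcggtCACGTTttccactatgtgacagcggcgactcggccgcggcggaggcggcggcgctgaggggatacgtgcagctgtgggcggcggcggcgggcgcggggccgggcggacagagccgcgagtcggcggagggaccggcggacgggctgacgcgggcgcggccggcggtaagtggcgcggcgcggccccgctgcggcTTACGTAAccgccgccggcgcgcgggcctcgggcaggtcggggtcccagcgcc
CRY1 (chr12:107093500-107093799, minus strand), E′-box read as AACGTG 89 bases before the start: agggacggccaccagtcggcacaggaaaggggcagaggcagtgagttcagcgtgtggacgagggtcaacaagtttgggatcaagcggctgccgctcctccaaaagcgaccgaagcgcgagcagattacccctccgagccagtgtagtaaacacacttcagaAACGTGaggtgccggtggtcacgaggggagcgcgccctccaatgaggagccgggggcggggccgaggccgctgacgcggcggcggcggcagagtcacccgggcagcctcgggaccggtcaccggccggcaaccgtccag
NR1D1 (chr17:40100540-40100839, minus strand), E′-box read as AACGTG 168 bases before the start: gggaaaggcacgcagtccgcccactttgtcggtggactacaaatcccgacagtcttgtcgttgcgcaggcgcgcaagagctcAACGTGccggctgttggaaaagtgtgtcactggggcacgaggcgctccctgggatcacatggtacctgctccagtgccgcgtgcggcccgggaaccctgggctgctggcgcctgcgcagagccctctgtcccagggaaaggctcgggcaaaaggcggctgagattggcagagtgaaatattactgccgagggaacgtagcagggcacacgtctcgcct
Canonical E-boxes thus stood before BHLHE40 and BHLHE41, which were lower, and before PER1, whose groups overlapped, and E′-boxes stood before PER2 and CRY1, which were lower, and NR1D1, which was higher.

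**Figure D2:**
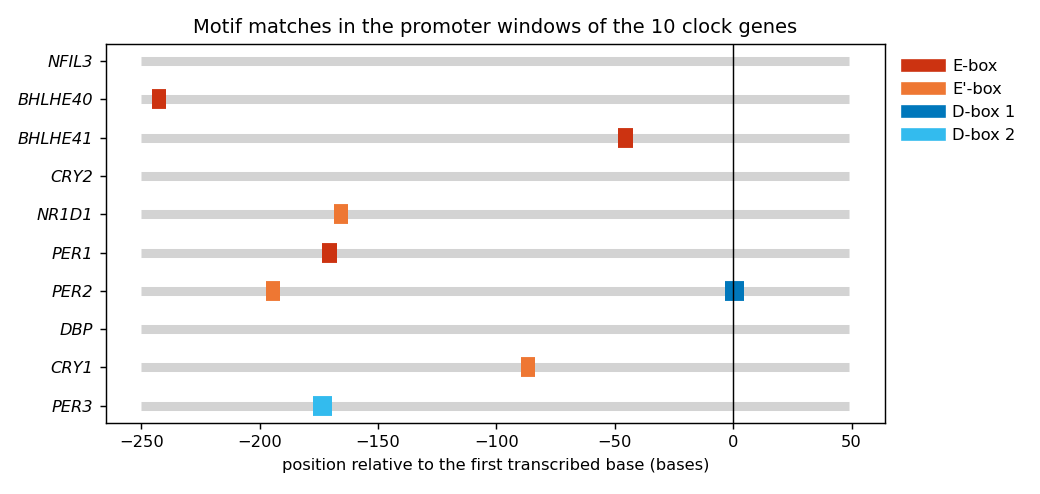
Positions of motif matches in the promoter windows of the 10 clock genes; the x axis gives bases from the first transcribed base (0), grey bars are the windows, and coloured blocks are matches to the E-box, the E′-box and both D-boxes. BHLHE40 has its E-box at −245 and BHLHE41 at −48, and PER2 alone has a D-box over the start.

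The rest of the core loop was examined next, using a list of 10 further clock genes. All 10 were listed, 9 passed the filter, and NPAS2, a partner of ARNTL in place of CLOCK, did not, with at most 5 counts per library. By the adjusted p alone, 4 of the 9 passed 0.05 upward and 3 downward, where 26.5% and 27.8% of all tested genes did (54.2% in either direction). Past the fold limit as well, CIART was called higher and RORA and RORB were called lower, where 6.15% and 10.6% of all tested genes were. With 9 genes, these counts are not read as particular to the list. The median log2 fold change of the 9 was −0.08.
Among the activators, CLOCK had a log2 fold change of 0.27 (SE 0.064, adjusted p = 0.00021, edgeR, Benjamini-Hochberg), from 24.8 ± 1.18 CPM in shNT to 30.0 ± 2.34 CPM in shPRKCN cells (SD, n = 3). ARNTL had a log2 fold change of −0.37 (SE 0.087, adjusted p = 0.0002, same test) and its paralog ARNTL2 of 0.28 (SE 0.064, adjusted p = 0.00018, same test), both within the fold limit. The ratio of ARNTL to ARNTL2 in FPKM was 1.44 ± 0.139 in shNT and 0.921 ± 0.154 in shPRKCN cells (SD, n = 3) and did not overlap between the groups. The pairs BHLHE40 and BHLHE41, CRY1 and CRY2, PER2 and PER1, and ARNTL and ARNTL2 therefore each had another ratio in shPRKCN than in shNT cells, without overlap of the libraries. The CPM of single genes did not overlap for 58.8% of all tested genes. No such share was formed for ratios, so nothing is read from the number of pairs.

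RORA, which activates ARNTL, fell most of this list. It had 38.5, 39.4 and 31.8 CPM in shNT and 18.1, 14.7 and 17.96 CPM in shPRKCN libraries, with a log2 fold change of −1.11 (SE 0.072, adjusted p = 5e-22, edgeR). RORB, at 2.41 to 4.70 CPM, was lower by a log2 fold change of −0.60 (SE 0.178, adjusted p = 0.003, edgeR), just past the fold limit, and lay within it without the first shNT library (−0.47), the first shPRKCN library (−0.54) or the second shPRKCN library (−0.55). NR1D2, the paralog of NR1D1, was higher by 0.30 on the log2 scale (SE 0.059, adjusted p = 1.1e-05, edgeR), within the fold limit. Set against each other on the FPKM scale, NR1D1 and NR1D2 together exceeded RORA and RORB by a ratio of 6.76, 6.93 and 7.80 in shNT libraries and of 20.7, 22.2 and 17.6 in shPRKCN libraries. Per length, these repressors at the shared element were thus more abundant than RORA and RORB together in every library, and by a larger factor after knockdown. The size of the factor depends on the gene lengths behind FPKM. In CPM the means of NR1D1, NR1D2, RORA and RORB were 19.0, 30.6, 36.6 and 3.98 in shNT cells. In shPRKCN cells they were 29.8, 37.7, 16.9 and 2.62. The ratio of NR1D1 to NR1D2 was 1.27 ± 0.116 in shNT and 1.61 ± 0.0345 in shPRKCN cells (SD, n = 3).

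CIART, a small repressor of CLOCK and ARNTL, rose from 23, 33 and 27 counts in shNT to 53, 46 and 67 counts in shPRKCN libraries, a log2 fold change of 0.96 (SE 0.310, adjusted p = 0.0069, edgeR). Without the third shPRKCN library its adjusted p was 0.052. The D-box activators TEF (log2 fold change −0.08, SE 0.087, adjusted p = 0.46, edgeR) and HLF (−0.17, SE 0.304, adjusted p = 0.66, same test) did not pass the limit of 0.05. With DBP they summed to 8.37 ± 0.421 FPKM in shNT and 9.21 ± 0.345 FPKM in shPRKCN cells (SD, n = 3). RORA-AS1, which shares 3.31% of the exonic bases of RORA on the opposite strand, had 31 to 90 counts per library and a log2 fold change of 0.49 (SE 0.261, adjusted p = 0.11, edgeR), which was 0.24 (adjusted p = 0.49) without the first shNT library and 0.69 (adjusted p = 0.031) without the second shPRKCN library. TMEM165, which shares 0.646% of the exonic bases of CLOCK, had a log2 fold change of 0.27 (SE 0.046, adjusted p = 8.3e-07, edgeR).

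**Figure D3:**
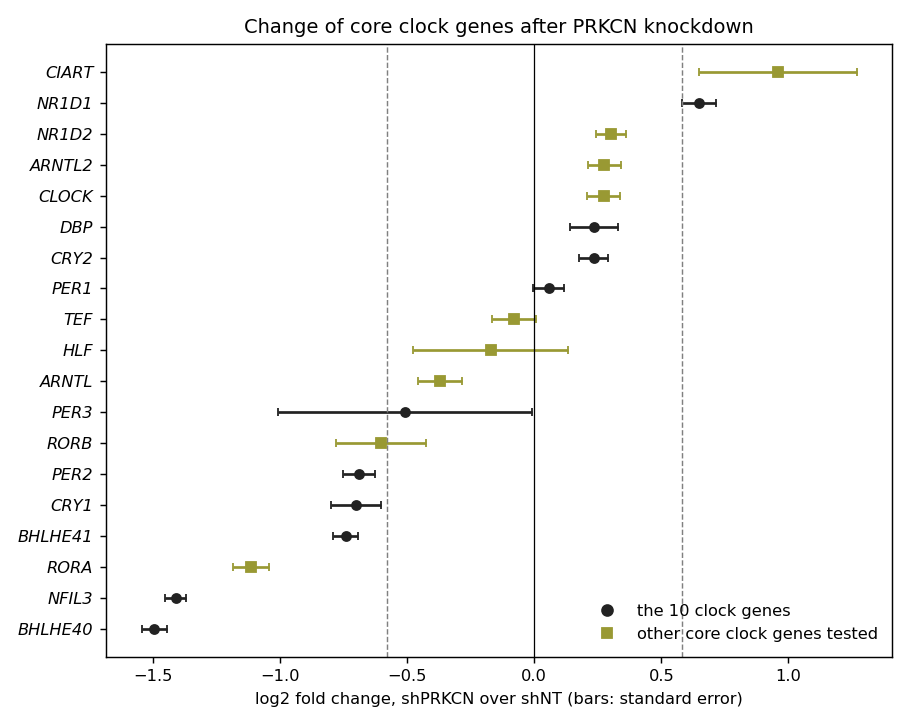
Log2 fold change (shPRKCN over shNT) with its SE for the 10 clock genes (black circles) and the 9 tested other core clock genes (olive squares); dashed lines mark the fold limit of 0.58 in either direction. BHLHE40, NFIL3 and RORA lie below −1, NR1D1 and CIART lie beyond the upper limit, and the bars of PER3, HLF and CIART are wide.

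Per length, BHLHE40 and BHLHE41 together outweighed the PER and CRY genes in the control cells and not in the knockdown cells. The repressor CIART is not in these sums. The summed FPKM of BHLHE40 and BHLHE41 divided by that of PER1, PER2, PER3, CRY1 and CRY2 was 1.75, 1.70 and 1.72 in shNT libraries and 0.886, 0.859 and 0.869 in shPRKCN libraries. BHLHE40, known to be lower when the genes were chosen, had a mean of 23.5 FPKM in shNT and 8.47 FPKM in shPRKCN cells. The PER sum was 11.7 and 9.87 FPKM and the CRY sum 12.1 and 12.0 FPKM in these groups. Ratios that hold BHLHE40 or NFIL3 thus in part restate a drop that was already known. These sums and all ratios were formed after the values had been seen and measure RNA, not protein.

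Among enzymes that modify clock proteins and partners of the repressor complexes, counts of genes that passed the adjusted p were near those of all genes. Of 12 kinases, ubiquitin ligase subunits and deacetylases that act on PER, CRY or REV-ERB proteins, none was called past both limits by edgeR or by DESeq2, although 7 had an unadjusted p under 0.05 in either, where 16.7% of all tested genes were called. By the adjusted p alone 7 of the 12 passed, where 54.2% of all tested genes did. At an adjusted p under 0.05, CSNK1D, CSNK2A1, GSK3B, FBXW11 and HUWE1 were higher and FBXW7 and SIAH2 lower; apart from HUWE1 and CSNK2A1 these genes, and CSNK1E, were named after their values were seen. FBXW11, a β-TrCP protein that recognises phosphorylated PER proteins, had the largest log2 fold change of these, 0.46 (SE 0.046). HUWE1, the gene of the list with the highest CPM, had one of 0.18 (SE 0.037), and CSNK2A1 one of 0.22 (SE 0.037). SIAH2 passed 0.05 at a log2 fold change of −0.12 but had an adjusted p of 0.16 without the third shNT library, 0.12 without the first shPRKCN library and 0.08 without the third shPRKCN library (edgeR).
The counts of CSNK1E, casein kinase 1ε, were 10, 153 and 166 in shNT and 261, 231 and 28 in shPRKCN libraries, so that 1 library of each group stood apart. CSNK1E shares 21.1% of its exonic bases with the read-through gene TPTEP2-CSNK1E on the same strand, which had 752 to 937 counts in every library. Without the third shPRKCN library the log2 fold change of CSNK1E was 1.15 (adjusted p = 0.00097, edgeR), without the second shNT library 0.96 (0.0052) and without the third shNT library 1.05 (0.02), against 0.64 (0.098) in all libraries. With all libraries and no filter on low counts, CSNK1E passed both limits at 0.64 (adjusted p = 0.00038, edgeR). The difference of CSNK1E is therefore not read in either direction.

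Of 6 partner proteins none was called past both limits by either tool, with 4 at an unadjusted p under 0.05 by edgeR and 5 by DESeq2. With 6 genes, and 16.7% of all tested genes called, nothing is read from the absence of a call, and 3 of the 6 passed the adjusted p, against 54.2% of all tested genes. TIMELESS, which acts at replication forks and is related to a clock protein of flies, had the largest difference, a log2 fold change of −0.52 (SE 0.044, adjusted p = 1.2e-16, edgeR). NONO (0.10, SE 0.033) and WDR5 (0.15, SE 0.049), components of PER complexes, were higher at an adjusted p under 0.05, and WDR5 was not without the second shNT library (adjusted p = 0.12, edgeR) or the second shPRKCN library (0.054). TIMELESS and WDR5 were named after their values were seen. SFPQ, the partner of NONO, had a log2 fold change of −0.06 (SE 0.033, adjusted p = 0.093, edgeR).

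Clock-controlled output genes held members on either side of the limits. Of 11 tested, 3 passed an adjusted p of 0.05 upward and 5 downward, and 1 and 2 of these also passed the fold limit. Over all tested genes the shares were 26.5% and 27.8% by the adjusted p and 6.15% and 10.6% with the fold limit, and with 11 genes the counts are not read as particular to the list. USP2, a ubiquitin-specific protease with strong rhythms in many tissues, rose from 49, 60 and 59 counts to 107, 108 and 172 counts, a log2 fold change of 1.16 (SE 0.212, adjusted p = 3.2e-06, edgeR). Without the third shPRKCN library the log2 fold change of USP2 was 0.92 (adjusted p = 0.0012, edgeR). WEE1, the kinase that restrains entry into mitosis and a textbook E-box output, fell from 81.1 ± 3.26 to 50.8 ± 0.979 CPM (SD, n = 3 libraries), giving a log2 fold change of −0.68 (SE 0.047, adjusted p = 1.4e-20, edgeR). CDKN1A, the cell cycle inhibitor p21, fell from 30.9 ± 1.499 to 16.3 ± 0.361 CPM (SD, n = 3 libraries), giving a log2 fold change of −0.92 (SE 0.067, adjusted p = 2e-19, edgeR). TSC22D3, a glucocorticoid-induced and rhythmic gene, lay just inside the fold limit at −0.54 (SE 0.041, adjusted p = 4.9e-19, edgeR). NAMPT, which makes the NAD+ precursor and is a direct target of CLOCK, had a log2 fold change of −0.11 (SE 0.038, adjusted p = 0.01, edgeR), and its adjusted p was 0.051 without the second shNT library and 0.057 without the second shPRKCN library. The others at an adjusted p under 0.05, named after their values were seen, were KLF10 (−0.26), PPARA (0.23) and POR (0.17) on the log2 scale.

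BHLHE40 and BHLHE41 belong to the wider group of Hairy and Orange repressors, whose HES and HEY members are best known as Notch targets. Of 10 such genes 9 were listed and 5 had enough counts for the test. At an adjusted p under 0.05, 4 of the 5 were lower and 0 higher, where 27.8% and 26.5% of all tested genes were, with the same 4 at an unadjusted p under 0.05 by edgeR and 4 by DESeq2. Past the fold limit as well, 3 of the 5 were lower, where 10.6% of all tested genes were. With 5 genes, and a list chosen with earlier results known, the counts are not read as particular to the list. HES6, a HES member that antagonises HES1, fell most, from 57.4 ± 2.56 to 16.0 ± 0.695 CPM (SD, n = 3 libraries), giving a log2 fold change of −1.84 (SE 0.059, adjusted p = 4e-38, edgeR). That is a larger log2 fold change than that of BHLHE40, and 0.780% of the tested genes had a lower one. HES1 (−0.65, SE 0.0997, adjusted p = 6.8e-08, edgeR) and HEY2 (−0.88, SE 0.201, adjusted p = 0.00015, edgeR) also fell past the limit, HES1 to −0.57 without the third shNT library, which is within it. HEY2 had 67 to 164 counts per library, and its log2 fold change was −0.63 (adjusted p = 0.015, edgeR) without the first shNT library. HEYL was lower by −0.45 on the log2 scale (SE 0.092, adjusted p = 2.1e-05, edgeR), within the fold limit. HEY1, named after its value was seen, had a log2 fold change of −0.06 (SE 0.144, adjusted p = 0.74, edgeR).

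The genes whose values over the 6 libraries were closest to those of BHLHE40 and NFIL3 were sought among 8861 genes with a mean of at least 10 CPM, by the root mean square difference of log2 CPM after centring each gene. For BHLHE40 they were GPRC5D (0.0236), KAT2B (0.0275) and DUSP1 (0.0363), with log2 fold changes of −1.47, −1.49 and −1.50. GPRC5D encodes a surface receptor of plasma cells targeted in myeloma, KAT2B the acetyltransferase PCAF and DUSP1 a phosphatase of MAP kinases. For NFIL3 they were INSIG2 (0.0331), PDLIM3 (0.0368) and ENO2 (0.0373), with log2 fold changes of −1.41, −1.43 and −1.39. INSIG2 encodes a regulator of sterol synthesis, PDLIM3 an actin-associated protein and ENO2 an enolase of glycolysis. Because the libraries form 2 groups, this likeness is mainly one of fold change, and all points share the same 6 libraries.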

How the data were processed

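RNA-seq libraries of MM.1S cells (3 shNT, 3 shPRKCN) were used. The authors deposited raw counts per gene and FPKM values per gene, with 1 column per library. The submitters' processing notes name FastQC, HISAT2, StringTie and the build GRCh38.p14; the counting program, annotation and strandedness are not given in the sources used here. Conditions were taken from the treatment labels.

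The filter filterByExpr kept 13971 genes, which were scaled by TMM and compared by the quasi-likelihood F test of edgeR 4.0.16 under R 4.3.3. P-values were adjusted over all these genes (Benjamini-Hochberg), and the limits were those of the study (adjusted p under 0.05, log2 fold change beyond 0.58). The study used DESeq2, which is an alternative here (1.42.0). DESeq2 called 822 genes higher and 1415 lower here, fewer than the study reported at these limits in either direction. The cause of this difference was not tested. The standard error is the log2 fold change divided by the square root of F. FPKM served for levels and ratios, and alternatives used limma 3.58.1 with a pseudocount of 1 or 0.1 added to FPKM before taking log2. Overlaps used GENCODE release 29 exons; motifs were searched with Python 3.11.15. The edgeR and DESeq2 fits were tested on simulated counts with large planted changes. No change was planted near the fold limit or in genes with few counts, so the simulation does not cover such calls.

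The rule named the 10 genes and all other core clock genes, those of 4 further lists past both limits plus the 2 of each list with the highest CPM, PRKD3 and IRF4, overlapping genes, and the 3 genes most like BHLHE40 and NFIL3. Members and lists were chosen with earlier results of these data known. A further clock gene, outside the 10 members and the 10 other core clock genes, is not reported here and is in none of the sums or list counts.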

Additional observations from a re-analysis of the deposited data

How the results depend on the processing

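The 859 higher and 1475 lower genes became 317 and 651 with limma on log2(FPKM + 1), which compresses the changes of low genes, and 3700 and 3877 without a fold limit. Of the 10 clock genes, the 5 on the lower side became 3 with log2(FPKM + 1), where PER2 (−0.55) and CRY1 (−0.53) came within the fold limit, and the 1 on the higher side became 3 without a fold limit. Leaving out any 1 library changed neither count, which stayed at 5 to 5 and 1 to 1. Of the 3 higher without a fold limit, DBP had an adjusted p of 0.03 (edgeR) and did not stay under 0.05 in every setting. Of the other core clock genes, 1 was called higher, which ran from 0 to 1 with single libraries left out, and became 0 with log2(FPKM + 1) and 4 without a fold limit. The 2 called lower ran from 1 to 2 with single libraries left out, and became 0 with log2(FPKM + 1) and 1 with log2(FPKM + 0.1). With log2(FPKM + 1), USP2 (0.41), HES1 (−0.55) and HEY2 (−0.28) also came within the fold limit. Without the filter on low counts, CSNK1E passed both limits (0.64, adjusted p = 0.00038, edgeR). The log2 fold change of HLF ran from −0.311 to 0.069 with single libraries left out and was 0.069 without the second shNT library; the cause was not tested. A replicate block gave 854 higher and 1463 lower genes and changed no count of clock genes. Deviations of same-numbered libraries correlated at −0.040, −0.015 and 0.0039, and no library correlated best with its own number. No shared deviation was thus seen, but this cannot show whether same-numbered libraries were made together, which the labels do not say. Other scaling moved the median of all genes by at most 0.0195 (log2). PER3, HLF, CIART, RORB, USP2 and HEY2 rest on few counts, which limits their precision.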
